A study of Mus musculus with 24 samples.

Results

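The genes that build cholesterol and fatty acids were followed in whole ears of mice that express the psoriasis-associated E138A form of Card14. The set holds 30 genes of the 51912 in the count table, chosen by their symbols from the textbook pathways. Of these, 21 form the sterol branch, which runs from acetyl-CoA through mevalonate and squalene to cholesterol and includes the regulators Srebf2 and Insig1 and the sterol carrier Stard4. The other 9 form the fatty acid branch, which runs from Acly to Thrsp and includes the regulator Srebf1. All 30 passed the filter on low counts, as did 17287 genes of the table.

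Polyadenylated RNA of 24 whole-ear samples was sequenced, 6 in each of 4 groups. The groups were Card14 E138A ears at day 5, wild-type ears at day 5, Card14 E138A ears at 1 month and wild-type ears at 1 month, all from C57BL/6 mice. The mutant strain holds a knock-in that is silent until CreERT2 is activated, after which the mutant protein is made from the endogenous Card14 locus. Mice received tamoxifen by intraperitoneal injection on 3 successive days, the wild-type samples carry the same treatment label, and times count from the first injection. The labels used here give neither the promoter that drives CreERT2, nor age or sex, nor whether each sample is a different mouse. A p-value here therefore sets a difference against the spread of the samples, which may be technical. In whole ears, fewer cells of a type and less RNA per cell cannot be told apart.

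Total counts per library were 16803680 to 18852963 in mutant and 15661515 to 16998900 in wild-type libraries at day 5, and 20608274 to 23022149 in mutant and 19255028 to 23904976 in wild-type libraries at 1 month. Levels are CPM, counts per 1e+06 of a library total that was adjusted by its TMM factor. Card14 lay at 35.1 to 65.4 CPM in mutant and 34.6 to 54.2 CPM in wild-type ears at day 5. At 1 month it was lower in mutant ears, at 9.93 to 25.3 CPM, than in wild-type ears, at 32.9 to 49.9 CPM. These gene counts do not show which allele was read. The summed level of 6 basal keratinocyte markers was 13700 to 18100 CPM in mutant and 12200 to 16900 CPM in wild-type ears at day 5. At 1 month it was 13800 to 23200 CPM in mutant and 11200 to 17300 CPM in wild-type ears. Of these markers, 2 were higher and 2 lower in mutant ears at day 5, against 20.7% and 20.2% of tested genes. At 1 month 3 were higher and 2 lower, against 25.5% and 21.5% of tested genes. In 3 of the 1 month libraries, mutant replicates 1 and 6 and wild-type replicate 2, expression relative to the mean of each gene correlated with the GC content of the genes above 0.4 (r = 0.446, 0.547 and 0.524). The other libraries lay between -0.364 and 0.301. For the genes of both branches, calls between genotypes at 1 month are therefore given with and without these 3. The comparisons over time within a genotype, and the marker and pathway lists, are given with them only.

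Sterol and fatty acid synthesis share a system of control. The SREBP transcription factors are made as membrane proteins of the endoplasmic reticulum, where INSIG proteins hold them back when sterols are plentiful. When sterols run low they are carried to the Golgi, cut and sent to the nucleus, where SREBP2, from Srebf2, acts mainly on cholesterol genes and SREBP1, from Srebf1, mainly on fatty acid genes. In skin these lipids go into the barrier of the epidermis, the sebum of the sebaceous gland and the stores of dermal fat cells. SREBPs bind the sterol regulatory element and work with the CCAAT-binding factor NF-Y and the GC box factor Sp1 at many of these promoters.

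The promoters show how far the branches share these motifs. RefSeq gave promoters (GRCm38.p6) for 25 of the 30 genes, 17 sterol and 8 fatty acid genes, all but Fdps, Sqle, Fdft1, Stard4 and Scd2. The 250 bases before the start were searched on both strands. The sterol regulatory element was searched as TCACNCCAC or ATCACNCCA. The box bound by NF-Y was searched as CCAAT. The letters of the GC box were GGGCGG. Those of the E-box, which SREBP1 can also bind, were CACGTG. Windows of 120 bases from 4 sterol and 2 fatty acid genes follow, each 5′ to 3′ on its own strand, with sterol regulatory elements and CCAAT boxes of either strand in capitals (a CCAAT box on the other strand reads ATTGG). They were chosen because they show the element in Hmgcs1 and Srebf2, clustered CCAAT boxes in Mvk, a single CCAAT box in the window of Ebp, and CCAAT boxes without the element in Fasn and Elovl5. Their positions are chr13:119690158-119690277, plus strand (Hmgcs1), chr15:82147050-82147169, plus strand (Srebf2), chr5:114444149-114444268, plus strand (Mvk), chrX:8193513-8193632, minus strand (Ebp), chr11:120824548-120824667, minus strand (Fasn) and chr9:77917245-77917364, plus strand (Elovl5).
Hmgcs1: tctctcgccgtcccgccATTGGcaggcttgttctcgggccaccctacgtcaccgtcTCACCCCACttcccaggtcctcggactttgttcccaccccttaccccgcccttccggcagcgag
Srebf2: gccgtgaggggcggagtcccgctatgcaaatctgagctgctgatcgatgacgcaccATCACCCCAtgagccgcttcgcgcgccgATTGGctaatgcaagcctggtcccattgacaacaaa
Mvk: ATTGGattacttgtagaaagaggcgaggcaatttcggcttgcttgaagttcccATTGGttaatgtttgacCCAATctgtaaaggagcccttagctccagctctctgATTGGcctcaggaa
Ebp: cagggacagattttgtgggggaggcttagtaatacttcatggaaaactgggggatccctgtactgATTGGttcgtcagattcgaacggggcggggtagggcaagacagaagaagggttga
Fasn: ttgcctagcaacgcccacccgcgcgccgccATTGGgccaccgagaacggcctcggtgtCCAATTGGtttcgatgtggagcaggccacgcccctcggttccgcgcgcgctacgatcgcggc
Elovl5: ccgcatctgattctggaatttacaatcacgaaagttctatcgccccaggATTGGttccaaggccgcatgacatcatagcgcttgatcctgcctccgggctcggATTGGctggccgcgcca

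A gene was counted if any of its promoters held the motif, and the 25 genes had 31 promoters. The share over all counts single promoters. The units are thus unlike, and a gene with several promoters had more chances of a match. CCAAT occurred in 16 of 17 sterol genes (94.1%) and 5 of 8 fatty acid genes (62.5%), against 33.8% of all 32851 promoters. GGGCGG occurred in 16 of 17 sterol genes (94.1%) and 3 of 8 fatty acid genes (37.5%), against 32.7% of all promoters. CACGTG was found in 4 of 17 (23.5%) and 1 of 8 (12.5%), against 6.02% of all. The sterol regulatory element in the letters searched was found in 2 sterol genes, Hmgcs1 and Srebf2 (11.8%). It was found in 0 of 8 fatty acid genes and in 1.56% of all promoters. Overlapping matches of different motifs were each counted. These matches describe the letters in the window and say nothing of binding.

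Levels of different genes were set side by side per kilobase of exon. In mutant ears at 1 month the highest mean levels per length were those of Scd2 (93.0 ± 17.1 CPM per kb, SD, n = 6) and Hmgcs1 (83.5 ± 33.4 CPM per kb), whereas in wild-type ears at 1 month Elovl6 (93.5 ± 45.7 CPM per kb) stood before Scd2 (82.0 ± 9.34 CPM per kb) and Hmgcs1 (73.5 ± 35.3 CPM per kb). These neighbours did not differ beyond their spread in either group. Hmgcs1, which makes HMG-CoA for the mevalonate pathway, led at day 5 with 123 ± 21.7 CPM per kb in mutant and 149 ± 14.9 CPM per kb in wild-type ears. The lowest levels per length were those of Thrsp in mutant ears at day 5 (0.458 ± 0.375 CPM per kb) and of Tm7sf2 in mutant and wild-type ears at 1 month (2.30 ± 0.333 and 2.99 ± 0.590 CPM per kb).

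The first question was what changed soon after the mutant protein was switched on. At day 5 the fatty acid branch was lower in mutant ears: 7 of 9 genes fell, 2 were not called and 0 rose. The background was 20.2% of all tested genes lower and 20.7% higher, against 77.8% of the fatty acid branch lower. The median log2 fold change, mutant over wild type, was -0.70 over the branch and -0.02 over all tested genes. A gene was called at a Benjamini-Hochberg adjusted p below 0.05 over all 17287 genes in edgeR's quasi-likelihood test, and an interval written with ± beside a log2 fold change is its standard error. No fatty acid gene was higher at an unadjusted p below 0.05 or in DESeq2 or voom either (0 genes each). In 6 of the 9 genes all mutant libraries lay below all wild-type libraries, a pattern seen in 16.4% of tested genes. The summed level of the branch was 1780 to 2140 CPM in mutant ears (median 2020) and 2940 to 3260 CPM in wild-type ears (median 3130).

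Srebf1, which encodes the fatty acid regulator SREBP1, ran from 148 to 192 CPM in mutant ears (median 167), against 246 to 309 CPM in wild-type ears (median 269). The groups did not overlap, and the gene fell (log2 fold change -0.70 ± 0.14, edgeR adjusted p = 0.000435). Fasn, the synthase that builds palmitate, ran from 313 to 452 CPM in mutant ears (median 399), against 639 to 698 CPM in wild-type ears (median 675). Every mutant library was again below every wild-type library (-0.77 ± 0.16, adjusted p = 0.00039). Elovl5, an elongase of polyunsaturated fatty acids, ran from 74.1 to 94.0 CPM in mutant ears (median 86.6), against 135 to 206 CPM in wild-type ears (median 187). Its groups were also apart, with a log2 fold change of -1.06 ± 0.15 (adjusted p = 6.09e-06).

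Elovl6, which lengthens palmitate to stearate, ran from 297 to 694 CPM in mutant ears (median 374), against 672 to 895 CPM in wild-type ears (median 782). Its fall passed the test (-0.92 ± 0.30, adjusted p = 0.0168), although the highest mutant library reached into the wild-type range. Scd2, a desaturase that makes monounsaturated fatty acids, ran from 189 to 454 CPM in mutant ears (median 292), against 481 to 573 CPM in wild-type ears (median 499). All mutant libraries were lower (-0.70 ± 0.17, adjusted p = 0.00147). Thrsp, a lipogenic protein that is induced by thyroid hormone in rodent liver and is abundant in fat, ran from 0.216 to 2.08 CPM in mutant ears (median 0.742), against 5.83 to 12.8 CPM in wild-type ears (median 6.41). It had the largest log2 fold change of the 30 genes at day 5, at -2.87 ± 0.45 (adjusted p = 2.25e-05), with no overlap between the groups.

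Me1, the malic enzyme that supplies reducing power for lipogenesis, fell with a smaller change (-0.38 ± 0.11, adjusted p = 0.00787) and no overlap between 151 to 213 CPM in mutant and 214 to 254 CPM in wild-type ears. The carbon-supply enzymes at the head of the branch were not called. Acly, which splits citrate to cytosolic acetyl-CoA, had -0.22 ± 0.11 (adjusted p = 0.112). Acaca, the acetyl-CoA carboxylase, had 0.02 ± 0.11 (adjusted p = 0.910).

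**Figure D1:**
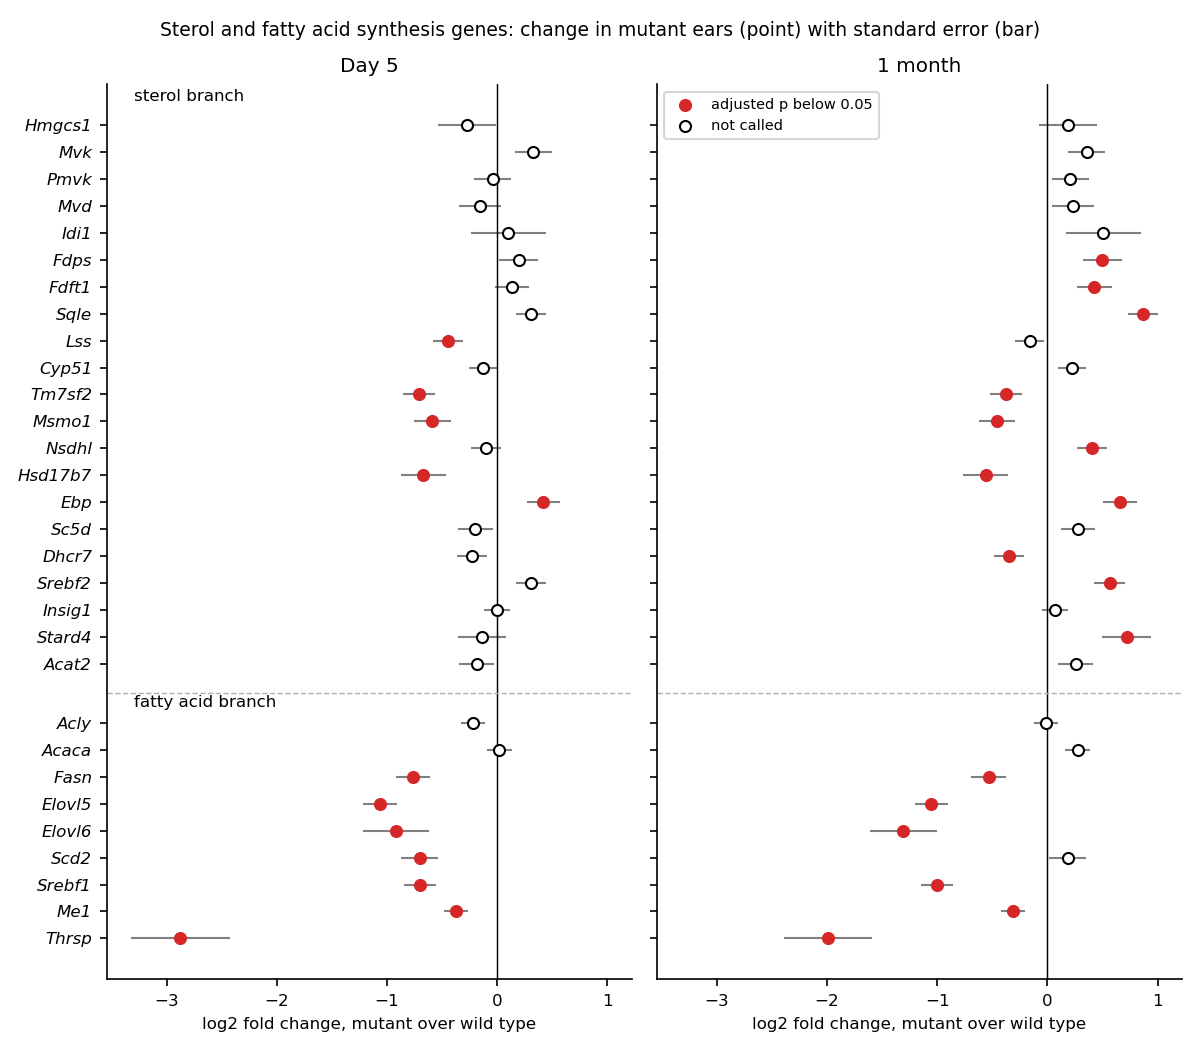
Log2 fold change of each gene, mutant over wild type (x axis), with its standard error as a bar, at day 5 (left) and 1 month (right), sterol genes above and fatty acid genes below the dashed line. Filled points passed an adjusted p of 0.05: 7 fatty acid genes were lower at day 5 and 6 at 1 month, and the sterol branch had 1 higher and 4 lower genes at day 5 and 7 higher and 4 lower at 1 month.

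The sterol branch did not move as a block at day 5. Of 21 genes, 1 was higher, 4 were lower and 16 were not called, so that 23.8% were called, below the 40.9% called among all tested genes. The branch median was -0.13. The summed level was 2660 to 4010 CPM in mutant ears (median 3210) and 3140 to 3940 CPM in wild-type ears (median 3690), so the groups overlapped. The 4 lower genes, Lss, Tm7sf2, Msmo1 and Hsd17b7, are enzymes that act on or after squalene, as do Sqle, Cyp51, Nsdhl, Sc5d and Dhcr7, which were not called, and Ebp, which was higher.

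Lss, the cyclase that makes lanosterol, ran from 145 to 217 CPM in mutant ears (median 172), against 208 to 274 CPM in wild-type ears (median 242), with -0.45 ± 0.13 (adjusted p = 0.00972). Tm7sf2, a sterol reductase, ran from 6.21 to 11 CPM in mutant ears (median 8.38), against 10.9 to 15.4 CPM in wild-type ears (median 14.9), with -0.71 ± 0.15 (adjusted p = 0.000422). Both pairs of groups overlapped at their edges. Tm7sf2 shares 532 exon bases with Vps51 on the same strand (mean 35.2 CPM), so part of its counts may be uncertain. Msmo1, the methylsterol oxidase, ran from 210 to 309 CPM in mutant ears (median 268), against 317 to 441 CPM in wild-type ears (median 406), with -0.59 ± 0.17 (adjusted p = 0.00625). It was the only sterol gene at day 5 whose mutant libraries all lay below the wild-type libraries, a pattern with a background of 16.4%. Hsd17b7, the ketoreductase of the same demethylation steps, ran from 121 to 237 CPM in mutant ears (median 159), against 204 to 321 CPM in wild-type ears (median 290), with -0.67 ± 0.20 (adjusted p = 0.0104).

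The sterol gene that rose at day 5 was Ebp, the sterol isomerase. It ran from 52.8 to 81.3 CPM in mutant ears (median 66.7), against 47.9 to 52.8 CPM in wild-type ears (median 49.3), with 0.42 ± 0.15 (adjusted p = 0.0295). Its call was lost when mutant replicate 2 or 6, or wild-type replicate 3, 4 or 6, was left out, with an adjusted p of up to 0.0801 (0.36, without mutant replicate 6). Srebf2 ran from 215 to 331 CPM in mutant ears (median 291), against 215 to 247 CPM in wild-type ears (median 227), and was not called (0.31 ± 0.14, adjusted p = 0.0788). It was called higher at day 5 in voom (0.37, adjusted p = 2.75e-05), with only the libraries compared (0.32, adjusted p = 0.00963), without 3 libraries of 1 month with high GC correlation (0.31, adjusted p = 0.0225), with the GC correlation as a covariate (0.35, adjusted p = 0.00123) and when single libraries were left out (lowest adjusted p = 0.0299, without mutant 1 month replicate 6). Insig1, which holds SREBPs in the endoplasmic reticulum and is itself an SREBP target, was at 60.3 to 95 CPM in mutant ears (median 77.0) and 62.5 to 85.8 CPM in wild-type ears (median 78.7), with -0.00 ± 0.12 (adjusted p = 0.983). The mevalonate genes Hmgcs1, Mvk, Pmvk, Mvd, Idi1 and Fdps lay between -0.28 and 0.33 and were not called. Other settings called Mvk, the mevalonate kinase, higher (0.39 in voom, adjusted p = 0.000103; 0.34 with only the libraries compared, adjusted p = 0.00195; 0.39 with the GC covariate, adjusted p = 0.000582) and Fdps higher (0.27 in voom, adjusted p = 0.00841, and 0.26 with the GC covariate, adjusted p = 0.0376). The GC covariate called Hmgcs1 lower (-0.39, adjusted p = 0.00804). Of the other sterol genes not called at day 5, voom also called Fdft1 and Sqle higher and Dhcr7 and Sc5d lower.

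**Figure D2:**
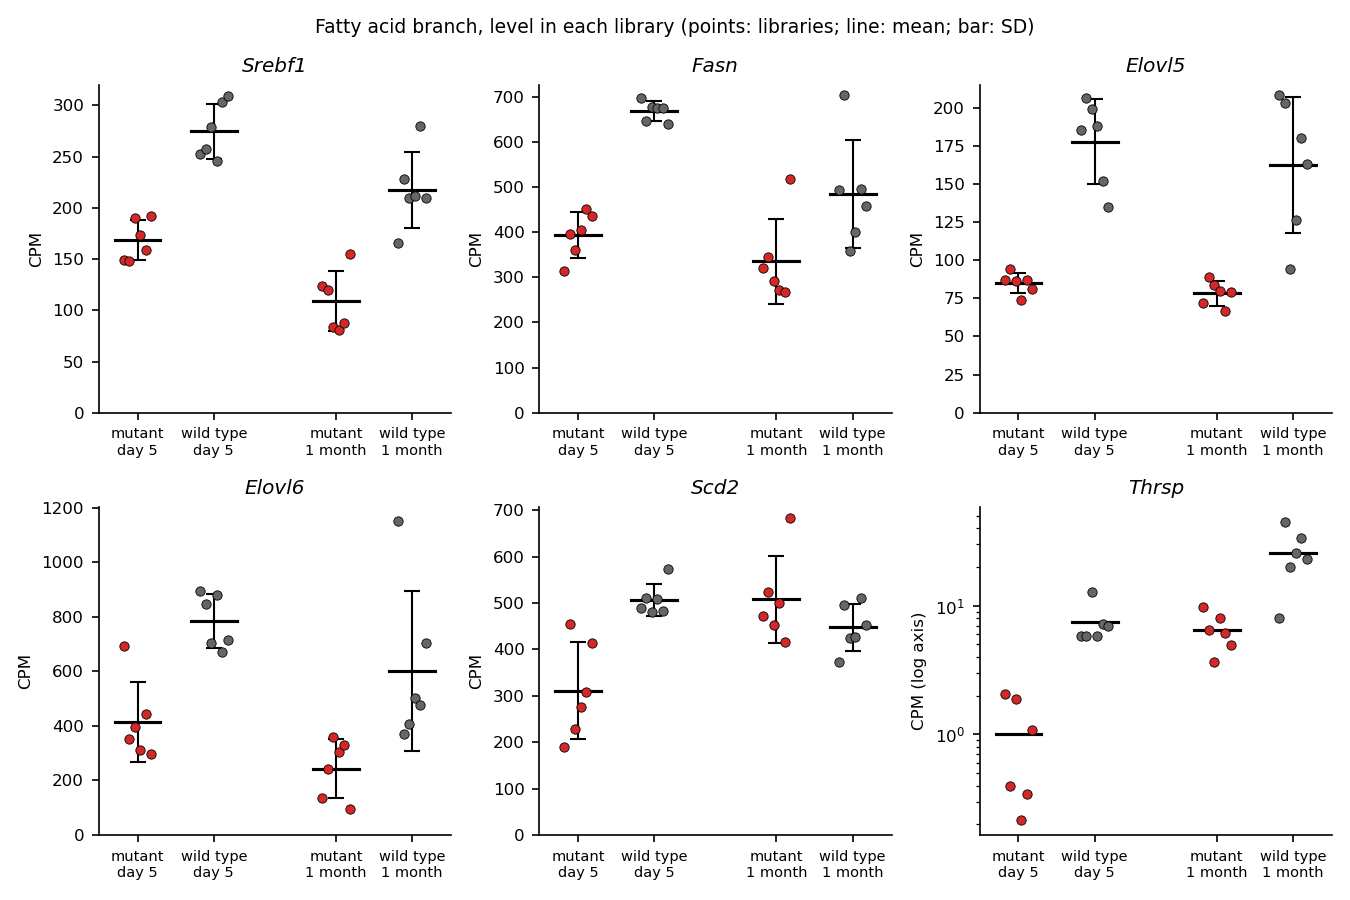
Level in CPM (y axis; log axis for Thrsp) of 6 fatty acid branch genes in each library, mutant ears left of wild-type ears at day 5 and at 1 month; lines are means and bars SDs over 6 libraries (the Thrsp panel has no SD bar). Srebf1 and Elovl5 were lower in every mutant library at both times, while Scd2 was lower in every mutant library at day 5 and overlapped at 1 month.

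The second question was what the ears looked like after 1 month of the mutant protein. The fatty acid branch was again lower in mutant ears, with 6 of 9 genes lower, 0 higher and 3 not called in edgeR. Without adjustment 1 gene, Acaca, was higher at a p below 0.05, and DESeq2 called 0 and voom 1 higher. The background was 21.5% of tested genes lower and 25.5% higher. The branch median was -0.53, against 0.05 over all tested genes, and its summed level was 1670 to 2250 CPM in mutant ears (median 1860) and 2070 to 3100 CPM in wild-type ears (median 2610). The same 6 genes, Fasn, Elovl5, Elovl6, Srebf1, Me1 and Thrsp, were lower at both times. In 3 of them, Elovl5, Elovl6 and Srebf1, the groups did not overlap (background 9.05% of tested genes).

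Srebf1 ran from 81.1 to 155 CPM in mutant ears at 1 month (median 104), against 166 to 280 CPM in wild-type ears (median 211), a log2 fold change of -0.999 ± 0.15 (adjusted p = 5.02e-06). Elovl5 ran from 66.4 to 89.0 CPM in mutant ears (median 79.2), against 94.0 to 208 CPM in wild-type ears (median 171), with -1.05 ± 0.15 (adjusted p = 3.95e-06). For this elongase the change over wild type was nearly the same at both times, and the change of the effect over time was 0.01 ± 0.21 (adjusted p = 0.995). Elovl6 ran from 93.9 to 358 CPM in mutant ears (median 273), against 369 to 1150 CPM in wild-type ears (median 489), with -1.31 ± 0.30 (adjusted p = 0.000969). The highest wild-type library stood well above the rest of its group.

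Thrsp ran from 3.64 to 9.84 CPM in mutant ears at 1 month (median 6.31), against 8.10 to 45.0 CPM in wild-type ears (median 24.4), with -1.99 ± 0.40 (adjusted p = 0.000233). Its groups overlapped through the lowest wild-type library. Fasn ran from 267 to 517 CPM in mutant ears (median 306), against 359 to 704 CPM in wild-type ears (median 476), with -0.53 ± 0.16 (adjusted p = 0.00649) and overlapping groups. Me1 had -0.32 ± 0.11 (adjusted p = 0.0198), a call lost without mutant replicate 5 (-0.25, adjusted p = 0.0567). Scd2 was at 417 to 683 CPM in mutant ears (median 487) and 373 to 512 CPM in wild-type ears (median 440), and was not called (0.18 ± 0.16, adjusted p = 0.391). Acly (-0.01 ± 0.11) and Acaca (0.27 ± 0.11, adjusted p = 0.0536) were not called either, and Acaca was called higher without wild-type replicate 2 or mutant replicate 1, without mutant day 5 replicate 1, and without the 3 libraries of high GC correlation (0.33 ± 0.11, adjusted p = 0.0186).

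The sterol branch at 1 month held changes of both signs. Of 21 genes, 7 were higher, 4 were lower and 10 were not called, against a background of 25.5% higher and 21.5% lower among tested genes. The share called, 52.4%, was near the 47.1% of all tested genes. The branch median was 0.26, and the summed level was 2500 to 3470 CPM in mutant ears (median 3010) and 2160 to 3170 CPM in wild-type ears (median 2530). The higher genes were Fdps, Fdft1, Sqle, Nsdhl, Ebp, Srebf2 and Stard4, and the lower genes were Tm7sf2, Msmo1, Hsd17b7 and Dhcr7. The 10 genes that were not called lay between -0.16 (Lss) and 0.51 (Idi1), among them Cyp51, the lanosterol demethylase (0.22 ± 0.13), and Acat2, the cytosolic thiolase at the head of the pathway (0.26 ± 0.16).

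Sqle, the squalene epoxidase and a rate-limiting enzyme of the late pathway, ran from 178 to 271 CPM in mutant ears (median 223), against 107 to 157 CPM in wild-type ears (median 117). Every mutant library was above every wild-type library, a pattern with a background of 12.2%, and the gene rose (0.87 ± 0.14, adjusted p = 1.7e-05). Srebf2, which encodes the sterol regulator SREBP2, ran from 185 to 364 CPM in mutant ears (median 243), against 147 to 185 CPM in wild-type ears (median 175). It also rose, with no overlap before rounding (0.56 ± 0.14, adjusted p = 0.00156). Mutant replicates 1, 2 and 6 were at 274, 281 and 364 CPM. Mutant replicates 3, 4 and 5 were at 211, 185 and 196 CPM, nearer to the highest wild-type library. Without the 3 libraries of high GC correlation the change was 0.35 (edgeR adjusted p = 0.0275). Stard4, which carries sterol between membranes, ran from 42.8 to 108 CPM in mutant ears (median 89.0), against 28.1 to 71.8 CPM in wild-type ears (median 51.9), with 0.72 ± 0.22 (adjusted p = 0.00932). Ebp ran from 58.6 to 112 CPM in mutant ears (median 82.8), against 42.8 to 60.2 CPM in wild-type ears (median 54.8), with 0.66 ± 0.15 (adjusted p = 0.000865). Mutant replicates 1, 2 and 6 were at 106, 112 and 101 CPM, whereas mutant replicates 3, 4 and 5 were at 58.6, 59.2 and 64.6 CPM, near the highest wild-type library.

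The other higher genes had smaller changes. Fdps, the farnesyl diphosphate synthase, had 0.50 ± 0.18 (adjusted p = 0.0248), Fdft1, the squalene synthase, had 0.43 ± 0.16 (adjusted p = 0.0269), and Nsdhl, a sterol dehydrogenase, had 0.41 ± 0.14 (adjusted p = 0.0173). Fdft1 shares 774 exon bases with Ctsb on the opposite strand (mean 628 CPM), and the sources used here do not say whether the counting used strand, so its value is uncertain. The same 3 mutant replicates, 1, 2 and 6, were high for Fdps (291, 343 and 313 CPM, against 150 to 165 CPM in the other mutant libraries), Fdft1 (174, 207 and 224 CPM, against 106 to 123 CPM) and Mvk (71.3, 85.0 and 85.0 CPM, against 39.1 to 45.7 CPM). The other 3 mutant libraries lay within the wild-type ranges of 142 to 192 CPM for Fdps, 104 to 142 CPM for Fdft1 and 37.9 to 54.7 CPM for Mvk. The GC correlation was 0.446, 0.236 and 0.547 in mutant replicates 1, 2 and 6 and -0.364 to -0.303 in the other 3. Fits without the libraries above 0.4, and with this correlation as a covariate, are given after the values by library. The calls of Fdps and Fdft1 were lost without wild-type replicate 1 or 6 or mutant replicate 1, 2 or 6, that of Fdft1 also without wild-type replicate 3, and that of Nsdhl without mutant replicate 6. Without mutant replicate 6 the values were 0.35 for Fdps (adjusted p = 0.114), 0.25 for Fdft1 (adjusted p = 0.169) and 0.29 for Nsdhl (adjusted p = 0.0947).

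Of the 4 sterol genes lower at 1 month, 3 were also lower at day 5. Hsd17b7 ran from 75.8 to 161 CPM in mutant ears (median 127), against 105 to 257 CPM in wild-type ears (median 187), with -0.56 ± 0.20 (adjusted p = 0.0257). Msmo1 ran from 155 to 269 CPM in mutant ears (median 234), against 180 to 416 CPM in wild-type ears (median 317), with -0.46 ± 0.17 (adjusted p = 0.0261). Tm7sf2 ran from 8.63 to 12 CPM in mutant ears (median 9.65), against 10 to 17.2 CPM in wild-type ears (median 13.2), with -0.38 ± 0.14 (adjusted p = 0.0334). All of these groups overlapped. Dhcr7, the last reductase before cholesterol, had -0.35 ± 0.14 (adjusted p = 0.0402). Lss, at 128 to 205 CPM in mutant ears (median 153) and 133 to 214 CPM in wild-type ears (median 174), was not called (-0.16 ± 0.13, adjusted p = 0.346).

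Each of these falls lost its call without single libraries. For Hsd17b7 these were wild-type replicate 1 and mutant replicates 1 and 5 (-0.46, adjusted p = 0.0665 without mutant replicate 1), for Msmo1 wild-type replicate 1 and mutant replicate 1 (-0.37, adjusted p = 0.0687 without mutant replicate 1). For Tm7sf2 they were wild-type replicates 2, 4 and 5 and mutant replicates 3, 4 and 5 (-0.29, adjusted p = 0.107 without wild-type replicate 2). For Dhcr7 they were wild-type replicates 2 to 5 and mutant replicates 1, 3, 4 and 5 (-0.27, adjusted p = 0.106 without mutant replicate 5). Insig1, at 49.7 to 71.6 CPM in mutant ears (median 61.4) and 47.3 to 66.1 CPM in wild-type ears (median 60.6), was again not called (0.07 ± 0.12, adjusted p = 0.672). Under every alternative setting and with each library left out, 4 of 5 sterol calls and 7 of 7 fatty acid calls were kept at day 5. At 1 month 4 of 6 fatty acid calls were kept, those of Elovl5, Elovl6, Srebf1 and Thrsp, and 1 of 11 sterol calls, that of Sqle. Voom with sample quality weights ended the calls of Ebp (0.20, adjusted p = 0.114) and Srebf2 (0.20, adjusted p = 0.0741), and a fit to the 1 month libraries alone ended those of Stard4 (0.68, adjusted p = 0.0632) and Fasn (-0.57, adjusted p = 0.0532).

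**Figure D3:**
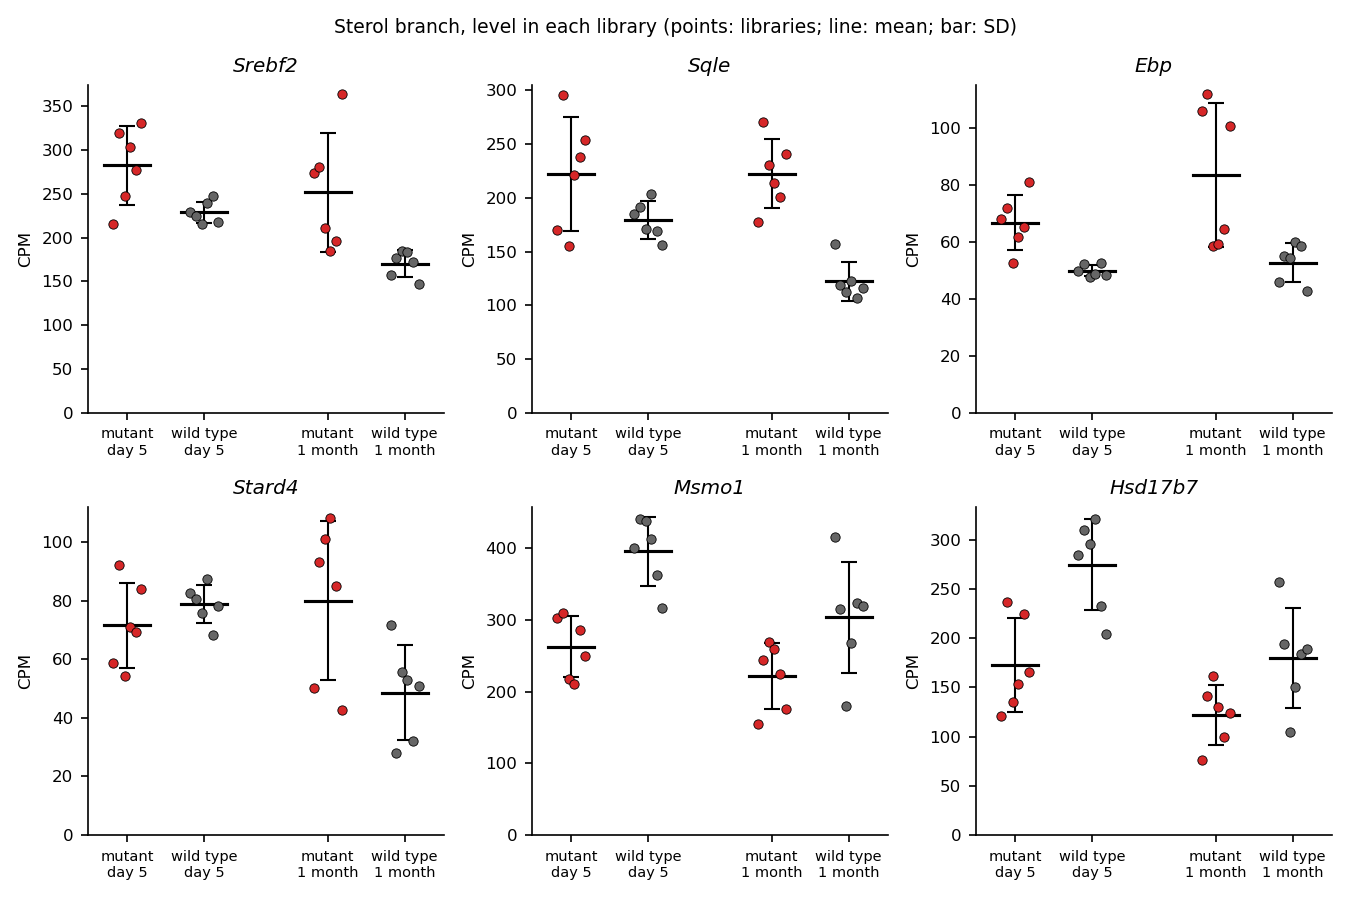
Level in CPM (y axis) of 6 sterol branch genes in each library, mutant ears left of wild-type ears at day 5 and at 1 month; lines are means and bars SDs over 6 libraries. At 1 month Sqle and Srebf2 were higher in every mutant library than in any wild-type library, and Msmo1 at day 5 was lower in every mutant library.

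The libraries of high GC correlation moved with a group of sterol genes. At 1 month Hmgcs1 lay at 186 and 252 CPM in the 2 mutant libraries with a correlation above 0.4 and at 340 to 586 CPM in the 4 other mutant libraries, against 153 CPM in the 1 wild-type library above 0.4 and 233 to 615 CPM in the 5 others. Idi1, which isomerizes isopentenyl diphosphate, lay at 43.4 and 60.8 CPM in those 2 mutant libraries and 140 to 247 CPM in the other 4, against 45.0 CPM in that wild-type library and 89.7 to 195 CPM in the other 5. Stard4 lay at 42.8 and 50.2 CPM and 84.9 to 108 CPM in the mutant libraries, against 28.1 CPM and 32.1 to 71.8 CPM in the wild-type libraries. Elovl6 followed the same order, with 93.9 and 134 CPM and 243 to 358 CPM in the mutant libraries, against 369 CPM and 407 to 1150 CPM in the wild-type libraries. The transcripts of Idi1 (41.1% GC), Hmgcs1 (43.6%) and Stard4 (45.3%) were below the median GC content of tested genes (50.0%), and those of Srebf1 were highest in the set (59.4%). Not every member below the median was low in these libraries. Nsdhl (45.5%) lay at 52.3 and 68.3 CPM in those 2 mutant libraries and 45.8 to 59.5 CPM in the other 4, against 49.8 CPM in that wild-type library and 28 to 49.3 CPM in the other 5. Cyp51 (46.3%) lay at 234 and 298 CPM and 247 to 376 CPM in the mutant libraries, against 283 CPM and 196 to 269 CPM in the wild-type libraries.

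**Figure D4:**
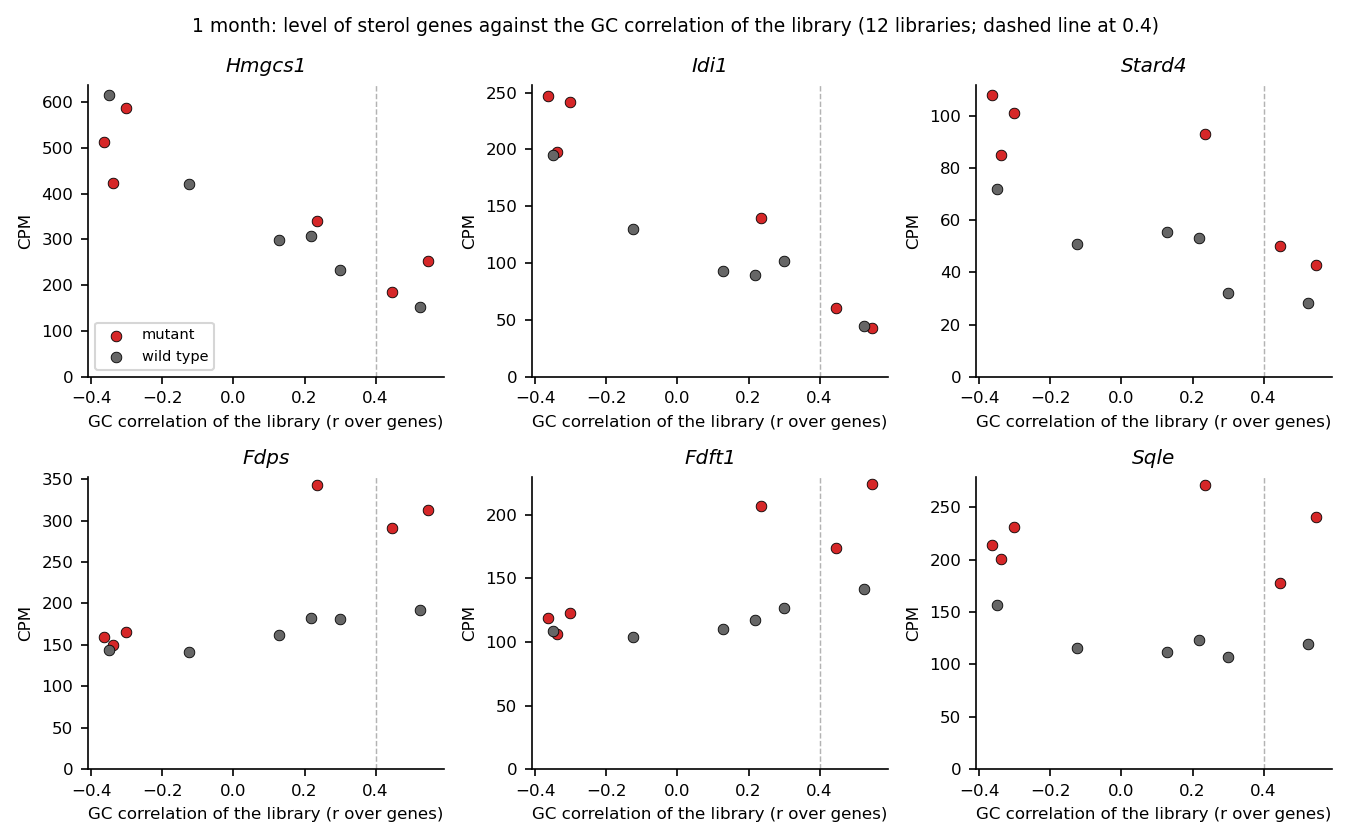
Level in CPM (y axis) of 6 sterol genes in the 12 libraries of 1 month against the correlation of each library's expression with the GC content of genes (x axis), mutant and wild-type libraries in separate colours, with the 0.4 limit dashed. Within each genotype Hmgcs1, Idi1 and Stard4 were lowest in the libraries right of the limit, while Sqle was higher in every mutant library than in any wild-type library along the axis.

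Without these 3 libraries the sterol branch at 1 month had 7 higher and 1 lower genes, and with the GC correlation as a covariate 9 higher and 4 lower. The fatty acid branch had 1 higher and 5 lower without them, and 1 higher and 6 lower with the covariate. In all 3 fits 6 sterol genes were called at 1 month (Sqle, Nsdhl, Ebp, Srebf2 and Stard4 higher, Dhcr7 lower) and 5 fatty acid genes (Fasn, Elovl5, Elovl6, Srebf1 and Thrsp lower). The fit without the 3 libraries kept mutant replicate 2, which lay with replicates 1 and 6 for Ebp and Srebf2. Dhcr7 was at 106, 151 and 133 CPM in mutant replicates 1, 2 and 6. In mutant replicates 3, 4 and 5 it was at 80.7, 84 and 77.2 CPM, against 113 to 147 CPM in wild-type ears. For these 3 genes, calls in all fits thus do not separate the mutant effect from this split of the mutant libraries. Fdps (0.30, adjusted p = 0.191), Fdft1 (0.27, adjusted p = 0.151), Msmo1 (-0.29, adjusted p = 0.181), Hsd17b7 (-0.43, adjusted p = 0.121), Tm7sf2 (-0.38, adjusted p = 0.0541) and Me1 (-0.30, adjusted p = 0.0523) were not called without the 3 libraries. Idi1 (0.75 ± 0.22, adjusted p = 0.00626) and Sc5d, a sterol desaturase (0.40 ± 0.11, adjusted p = 0.00429), were called higher without them. At day 5, 5 of 5 sterol and 7 of 7 fatty acid calls held in all 3 fits.

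The change of the mutant effect from day 5 to 1 month was tested directly, as the log2 fold change at 1 month minus that at day 5. It was called for 1 of the 30 genes (3.33%), against 8.77% of tested genes (4.68% upward and 4.09% downward). That gene was Scd2 (0.89 ± 0.23, adjusted p = 0.0174), which was lower in mutant ears at day 5 and overlapped with wild type at 1 month. In the sterol branch 20 of 21 estimates were above 0, with a median of 0.31 against 0.02 over all tested genes, and 0 were called. Without adjustment 4 sterol genes had a p below 0.05 (Sqle, Nsdhl, Sc5d and Stard4, all upward), while DESeq2 called 1 and voom 12 of the 30 genes. Stard4 (0.86 ± 0.31, adjusted p = 0.0929) and Sqle (0.56 ± 0.20, adjusted p = 0.0794) had the largest of these. Stard4 was called without the 3 libraries of high GC correlation (0.99 ± 0.22, adjusted p = 0.00508). Sqle was called without mutant day 5 replicate 2, mutant 1 month replicate 1 or wild-type 1 month replicate 1, and Stard4 without either 1 month library of these or without mutant 1 month replicate 6. Other settings also called the difference for Stard4 (0.99 in voom, adjusted p = 0.000158, and 0.82 with the GC covariate, adjusted p = 0.0119) and Sqle (0.48 in voom, adjusted p = 0.0144, and 0.56 with the GC covariate, adjusted p = 0.0439). Sc5d was called upward in voom (0.70, adjusted p = 0.000167), without the 3 libraries (0.60, adjusted p = 0.0102) and with the covariate (0.44, adjusted p = 0.0167). Whether the mutant effect on Stard4, Sqle and Sc5d differed between the times thus depended on the setting.

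Within genotypes, 1 month was set against day 5. Day 5 lay nearer to the tamoxifen injections than 1 month did, in both genotypes. Effects of the treatment, of age and of time thus cannot be told apart here. In mutant ears 4 of 30 genes were called (13.3%, against 19.4% of tested genes, 11.2% higher and 8.23% lower). Thrsp (2.69 ± 0.45, adjusted p = 0.000109) and Scd2 (0.71 ± 0.17, adjusted p = 0.00321) were higher at 1 month, and Srebf1 (-0.63 ± 0.14, adjusted p = 0.00264) and Insig1 (-0.34 ± 0.12, adjusted p = 0.0425) were lower. In wild-type ears 7 of 30 genes were called (23.3%, against 9.09% of tested genes, 6.28% higher and 2.81% lower). Thrsp was higher at 1 month (1.81 ± 0.40, adjusted p = 0.00608).

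The other 6 wild-type calls were sterol genes that were lower at 1 month. The branch median was -0.38, against -0.03 over all tested genes, with 20 of 21 estimates below 0. They were Hmgcs1 (-1.02 ± 0.27, adjusted p = 0.0173), Stard4 (-0.70 ± 0.22, adjusted p = 0.0481), Sqle (-0.55 ± 0.14, adjusted p = 0.0137), Sc5d (-0.54 ± 0.16, adjusted p = 0.0342), Lss (-0.43 ± 0.13, adjusted p = 0.0481) and Insig1 (-0.42 ± 0.12, adjusted p = 0.0279). In mutant ears the median of the branch over time was -0.06, against -0.02 over all tested genes, with 1 gene lower and 0 higher. Without adjustment 1 sterol gene, Ebp, was higher and 3, Hmgcs1, Hsd17b7 and Insig1, were lower in mutant ears at a p below 0.05. In wild-type ears 0 were higher and 12 lower by that measure. Over both branches DESeq2 called 4 and voom 13 genes in mutant ears. The comparisons within genotypes and between them share libraries, so the values above are not separate evidence. The number of wild-type calls ranged from 3 to 9 as single libraries were left out. The count was 4 with total counts only, 3 with no filter and 18 with the GC covariate. Over all 5 comparisons 8 genes were never called: Acaca, Acat2, Acly, Cyp51, Idi1, Mvd, Mvk and Pmvk.

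Markers of fat and sebaceous cells were mostly lower in mutant ears, as were most fatty acid genes. At 1 month the median log2 fold change was -1.71 for the adipocyte and -0.91 for the sebocyte markers. It was -0.53 for the fatty acid and 0.26 for the sterol branch. At day 5 the medians were -1.04 and -0.53 for these markers and -0.70 and -0.13 for these branches. In wild-type ears over time the median was 0.66 for the adipocyte and -0.31 for the sebocyte markers. There it was -0.38 for the sterol and -0.20 for the fatty acid branch. Of 9 adipocyte markers, 7 were lower in mutant ears at day 5 (77.8%, against 20.2% of tested genes) and 9 at 1 month (100%, against 21.5%), and their summed level was 296 to 513 CPM in mutant and 551 to 884 CPM in wild-type ears at day 5, and 269 to 469 CPM in mutant and 648 to 1610 CPM in wild-type ears at 1 month. Plin1, a coat protein of fat droplets, had -1.54 ± 0.20 at day 5 and -1.82 ± 0.21 at 1 month (adjusted p = 2.66e-06 and 1.64e-07). Of 10 sebocyte markers, 6 were lower at each time (60%, against 20.2% and 21.5% of tested genes), with sums of 627 to 1160 CPM in mutant and 1060 to 1500 CPM in wild-type ears at day 5, and 438 to 851 CPM in mutant and 530 to 1380 CPM in wild-type ears at 1 month. Awat2, a wax synthase, had -1.08 ± 0.21 at day 5 and -1.22 ± 0.21 at 1 month (adjusted p = 0.000284 and 3.01e-05). None of the defining markers of either list was at 0, and the part of these cells in the results was not tested.

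Markers of other cells moved too. The summed level of 6 proliferation genes was 560 to 744 CPM in mutant and 244 to 296 CPM in wild-type ears at day 5, and 312 to 869 CPM in mutant and 80.7 to 290 CPM in wild-type ears at 1 month. That of 7 hair follicle genes was 15.3 to 29.8 CPM in mutant and 20 to 37.9 CPM in wild-type ears at day 5, and 481 to 2790 CPM in mutant and 34.3 to 360 CPM in wild-type ears at 1 month. That of 6 neutrophil genes was 1940 to 8730 CPM in mutant and 9.06 to 13.0 CPM in wild-type ears at day 5, and 3190 to 7120 CPM in mutant and 12.4 to 51.1 CPM in wild-type ears at 1 month. S100a8 alone was at 3510 CPM in mutant replicate 2 at day 5, the library with the sum of 8730 CPM. The change of the mutant effect over time was called downward for 4 of the 6, against 4.09% of tested genes. Its median over the 6 was -2.14 on the log2 scale. Of 6 macrophage markers, 5 were higher at day 5 and 6 at 1 month, against 20.7% and 25.5% of tested genes higher. Their sums were 325 to 904 CPM in mutant and 238 to 289 CPM in wild-type ears at day 5. At 1 month they were 454 to 810 CPM in mutant and 189 to 402 CPM in wild-type ears.

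Muscle and fibroblast markers were among those that moved with the lower fatty acid branch at day 5. Of 6 skeletal muscle markers, 4 were lower at day 5 and 6 at 1 month. Their sums were 1680 to 3270 CPM in mutant and 3820 to 5190 CPM in wild-type ears at day 5, and 841 to 3650 CPM in mutant and 4980 to 15200 CPM in wild-type ears at 1 month. Of 6 fibroblast markers, 1 was higher and 3 were lower at day 5, and 5 were higher and 1 lower at 1 month, with sums of 5000 to 9680 CPM in mutant and 13200 to 18200 CPM in wild-type ears at day 5, and 11500 to 32200 CPM in mutant and 8240 to 13300 CPM in wild-type ears at 1 month. The muscle sums were thus lower in mutant ears at both times and the fibroblast sums at day 5 alone. Of 7 suprabasal keratinocyte markers, 1 was higher and 3 were lower at day 5, and 1 was higher and 4 were lower at 1 month. The backgrounds were those given above, 20.7% higher and 20.2% lower at day 5 and 25.5% higher and 21.5% lower at 1 month. The part of all of these cells in the results was not tested.

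The genes also varied among themselves within groups. After the mean of each group was taken away, the median Pearson r of log2 CPM over the 24 libraries was 0.382 over 210 pairs within the sterol branch, 0.184 over 36 pairs within the fatty acid branch and 0.291 over 189 pairs between them. These pairs share libraries, depth and the GC pattern above, so the values are a description. Hmgcs1, Idi1, Sc5d and Stard4 ran against the rest of the sterol branch, with median r of -0.158, -0.248, -0.343 and -0.197 to its other members. The genes most like the mean of the sebocyte markers were Elovl5 (r = 0.848), Lss (0.826), Hsd17b7 (0.816), Acat2 (0.793) and Nsdhl (0.773), while Srebf1 had 0.0374. Thrsp was most like the adipocyte markers (0.738), followed among the 30 genes by Srebf1 (0.523). Values of similar size occurred with other lists, mostly for other genes of the set. Elovl5, Lss, Hsd17b7, Acat2 and Nsdhl, picked here by their sebocyte value, had smaller values with the other lists. The largest of these in size was -0.642 (Hsd17b7 with the skeletal muscle markers). With the proliferation markers Stard4 had 0.8, Sc5d 0.784, Hmgcs1 0.778 and Idi1 0.726, while Srebf1 had -0.749. Stard4 had 0.751 with the suprabasal keratinocyte markers, and Thrsp had 0.588 with the skeletal muscle markers.

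The genes that control the SREBPs, and those of sterol transport, were read against the same backgrounds, 40.9% of tested genes called at day 5 and 47.1% at 1 month. Of 8 genes for SREBP processing and stability, 2 were lower at day 5 (25%, near the 20.2% of tested genes lower) and 1 at 1 month (12.5%, against 21.5%), and the others were not called. Insig2, the relative of Insig1, was lower at both times (-0.52 ± 0.12, adjusted p = 0.00125, and -0.48 ± 0.12, adjusted p = 0.00202). Mbtps1, the first SREBP protease, had -0.31 ± 0.09 at day 5 (adjusted p = 0.00994). Of 10 LXR receptors and targets, which respond to oxysterols, 1 was higher and 3 lower at day 5, and 2 were higher and 3 lower at 1 month, so that 40% and 50% were called, near the background. They included Smpdl3a, a phosphodiesterase, which was higher at both times (1.03 ± 0.15 and 0.96 ± 0.15), and Apoe, a lipid carrier (-0.81 ± 0.19 at day 5).

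Of 12 genes for sterol uptake, transport and storage, 3 were higher and 3 lower at day 5, and 5 were higher and 2 lower at 1 month (50% and 58.3% called, against 40.9% and 47.1% of tested genes). Ch25h, which makes an oxysterol that restrains SREBP processing, had the largest change at day 5 (4.02 ± 0.32, adjusted p = 1.95e-09), and Lrp8, a lipoprotein receptor, was higher at both times (1.86 ± 0.29 and 2.11 ± 0.29). Osbpl1a, an oxysterol-binding protein gene, was lower at both (-0.72 ± 0.13 and -1.05 ± 0.13). Of 10 other steroid and isoprenoid enzymes, 2 were higher and 2 lower at day 5, and 4 were higher and 2 lower at 1 month (40% and 60% called). Cyp27a1, a sterol hydroxylase, had -0.77 ± 0.13 at day 5 (adjusted p = 6.77e-05).

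Other genes of fatty acid and triglyceride synthesis moved in the direction of the fatty acid branch. Of 15, 9 were lower at day 5 and 8 at 1 month, the others not being called, against the backgrounds of 20.2% and 21.5% lower. Scd1, a stearoyl-CoA desaturase of the sebaceous gland, had -1.30 ± 0.17 at day 5 and -1.40 ± 0.17 at 1 month (adjusted p = 1.55e-06 and 3.35e-07). Lpin1, a phosphatidate phosphatase, had -0.83 ± 0.12 and -1.42 ± 0.13, and Acacb, the mitochondrial acetyl-CoA carboxylase, had -1.70 ± 0.18 at 1 month. Of 12 fatty acid oxidation genes, 1 was higher and 5 lower at day 5, and 5 were lower at 1 month, the others not being called. In either direction 50% and 41.7% were called, against 40.9% and 47.1% of tested genes. Most of these calls were falls, against 20.2% and 21.5% of tested genes lower. At 1 month all were falls, so that 41.7% of the list was lower. The oxidation genes included Acadl, an acyl-CoA dehydrogenase (1.04 ± 0.11 at day 5), and Ppara, a fatty acid-sensing receptor (-0.63 ± 0.12 at day 5 and -1.40 ± 0.12 at 1 month).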

How the data were processed

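RNA was measured in 24 whole-ear samples, 6 in each of the 4 groups of genotype and time that the labels name. The deposited table holds RSEM expected counts for each Ensembl gene, per the file headers, with no scaling of libraries against each other by the authors. The submitters' processing notes name RSEM 1.3.0, STAR 2.5.2, DESeq2 1.14.1 and GRCm38. The annotation release and the use of strand are not given in the sources used here. Values were rounded to whole counts, which changed 6.71% of them. GENCODE M21 (GRCm38) supplied symbols, positions, exon lengths and GC content; it held 51633 of the identifiers and lacked 279. Promoters came from RefSeq.

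Counts were tested in R 4.3.3 with edgeR 4.0.16: filterByExpr by group, TMM factors, 1 coefficient per group over all 24 libraries and robust quasi-likelihood F tests, two-sided, adjusted by Benjamini-Hochberg over 17287 genes, with calls below 0.05. Standard errors were taken as the absolute log2 fold change over the root of F. Log2 CPM used a prior count of 2. The code was tested on simulated data. No pair of 60 within groups agreed within sampling noise (smallest chi-square per degree of freedom 4.86), so none was counted as a repeat deposit, which leaves untested whether samples share a mouse. Intervals cover these libraries only.

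The 30 genes, the pathway and marker lists and the tests were chosen with earlier results of these data known, so their direction is not independent evidence. Values by library are given for the 5 largest called changes of each branch at each time and for Srebf1, Srebf2 and Insig1, and up to 3 genes with the smallest adjusted p for each other list. A few genes under this rule are left unreported. Me1, and members given with a single value, fall outside the first part of the rule. Alternatives were DESeq2 1.42.0, RLE factors, total counts, voom (limma 3.58.1) with sample quality weights, no filter, a non-robust fit, a filter of 1 CPM in 6 libraries, a fit to the compared groups alone, a replicate block and each library left out. Leaving out 3 libraries and a GC covariate were added after the data were seen.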

Additional observations from a re-analysis of the deposited data

Results flagged for a closer look

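In 4 of 120 groups of 6 libraries 1 library stood far from the rest (its gap to the nearest divided by the range of the group was above Dixon's 95% critical value), and chance flags about 1 in 20 groups. Sqle was at 157 CPM in wild-type replicate 1 at 1 month, against 107 to 123 CPM in the other 5, still below the lowest mutant library. Insig1 was at 62.5 CPM in wild-type replicate 5 at day 5, against 77.9 to 85.8 CPM in the others. Scd2 was at 573 CPM in wild-type replicate 6 at day 5, against 481 to 510 CPM in the others. Thrsp was at 12.8 CPM in wild-type replicate 3 at day 5, against 5.83 to 7.18 CPM in the others.

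The mutant effect on Scd2 differed between the times by the test of the difference itself, with 0.89 ± 0.23 on the log2 scale (edgeR adjusted p = 0.0174). All mutant libraries were lower at day 5, and the groups overlapped at 1 month.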

How the results depend on the processing

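DESeq2, RLE factors, the 1 CPM filter and the fit that is not robust kept the call of each of the 30 genes in the day 5, 1 month and difference tests. The replicate numbers did not pair the samples (36 same-number pairs, r -0.733 to 0.394, median -0.0301, 3 over 0.1). With a replicate block 4 genes in place of 7 were called in wild-type ears over time, Acaca was called at 1 month (1 higher fatty acid gene, adjusted p = 0.0472) and Msmo1 was not (adjusted p = 0.0507). Voom called 20 genes in place of 12 at day 5 (6 sterol genes higher in place of 1), 2 lower sterol and 1 higher fatty acid gene at 1 month, 12 in the difference, 13 in mutant and 20 in wild-type ears over time, while it called 67.7% of all genes at day 5. Its branch medians in mutant ears over time were -0.25 (sterol) and -0.12 (fatty acid). In voom Fdps at 1 month turned to -0.032 (adjusted p = 0.838) and Mvk in the difference to -0.56 (adjusted p = 0.00264). With only the libraries compared, 3 sterol genes were higher at day 5, and 8 genes were called at 1 month (3 sterol higher and 1 lower). That setting has no difference test. No filter gave 2 lower sterol genes at 1 month and 3 calls in wild-type ears over time, and total counts gave 4. Without the 3 libraries of high GC correlation there were 2 higher sterol genes at day 5, 1 lower sterol and 1 higher fatty acid gene at 1 month and 3 calls in the difference. The GC covariate gave 4 higher sterol genes at day 5, 1 higher fatty acid gene at 1 month, and 4 calls in the difference, 9 in mutant and 18 in wild-type ears over time. With single libraries left out, higher sterol genes at day 5 ranged from 0 to 3, lower sterol genes at 1 month from 1 to 4, higher fatty acid genes from 0 to 1, the fatty acid median at 1 month from -0.75 to -0.40 and in the difference from 0.0080 to 0.24, calls in the difference from 1 to 3 and in wild-type ears over time from 3 to 9. The causes were not tested.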
